A study of Mus musculus with 9 samples.

Results

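The 10 genes described here are the Notch receptors Notch1, Notch2 and Notch3, the ligands Dll1, Dll3, Dll4, Jag1 and Jag2, and the transcription factors Hes1 and Hes6. They were picked by name from the 54532 Ensembl genes of the deposited count table, and all 10 were found. RNA was sequenced from 9 libraries of cultured mouse stem cells, 3 of each of 3 cell types, all from the cross given as Sv129 x GOF/GFP F1. ABSCs (passage 25 to 30) grew in Activin A and BMP4 and are labelled as similar to trophoblast stem cells. The medium of ALSCs (passage 20 to 25) is read as the one with Activin A and the cytokine LIF, a recipe that the protocol lists under the AB medium's name. AFSCs (passage 15 to 20) are blastocyst-derived cells labelled as similar to epiblast stem cells, grew in Activin A and bFGF, and are the source from which the other cell types were made by a change of medium. Cell type, medium, passage and possibly the RNA kit change together and cannot be told apart, and nothing in the labels says that the 3 libraries of a type came from separate cultures, so p-values measure the spread between these libraries.

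Notch receptors are single-pass membrane proteins that bind ligands of the Delta-like and Jagged families on neighbouring cells. Binding lets ADAM proteases and then gamma-secretase cut the receptor, and the freed intracellular part joins RBPJ and Mastermind proteins to switch on target genes, with the Hes and Hey repressors among the best known. In the mouse embryo the pathway is known for segmentation of the paraxial mesoderm, where Dll1, Dll3 and Hes factors act, and for neural and vascular development.

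Total counts over named genes ran from 18978651 in ALSCs 2 to 21578737 in AFSCs 3. Levels are CPM, a gene's counts scaled to a common library size with TMM factors, and 3 counts in a library correspond to 0.138 to 0.157 CPM. Risen, fallen and called are used where edgeR's quasi-likelihood test gave a Benjamini-Hochberg adjusted p under 0.05 over all 16178 genes tested. Libraries numbered 1 stood apart: the chi-square of 2 libraries over its degrees of freedom was 12.7 to 25.9 for pairs with library 1 and 2.10 to 4.23 for libraries 2 and 3 of a cell type. All 7 epiblast stem cell markers were detected in every library, and they moved between the groups: in ABSCs against AFSCs 5 fell and 2 rose, and in ALSCs against AFSCs 3 fell and 1 rose. Their summed level was 3100 to 3460 CPM in ABSCs, 3120 to 3420 CPM in ALSCs and 3670 to 3790 CPM in AFSCs. The pluripotency factor Pou5f1 stood at 1230, 935 and 1070 CPM, Sox2 at 16.1, 11.9 and 25.3 CPM, and the epiblast growth factor Fgf5 at 16.3, 147 and 189 CPM in ABSCs, ALSCs and AFSCs in that order. Dnmt3b, the largest part of the sum, stood at 1610, 1730 and 2030 CPM, and Nanog at 181, 250 and 139 CPM. Otx2 was at 155, 197 and 196 CPM and Pou3f1 at 54, 29.4 and 77.7 CPM. The 7 trophoblast markers listed (Cdx2, Eomes, Elf5, Gata3, Tfap2c, Esrrb and Hand1) summed to 402 to 480 CPM in ABSCs, 160 to 296 CPM in ALSCs and 189 to 258 CPM in AFSCs. The higher sum in ABSCs rested on Hand1 alone, at 244, 208 and 188 CPM in ABSCs 1 to 3. Hand1 (213, 2.08 and 0.24 CPM in ABSCs, ALSCs and AFSCs) and Cdx2 (4.45 CPM in ABSCs) rose in ABSCs against AFSCs, and Hand1 and Tfap2c rose in ALSCs. Eomes (117, 127 and 122 CPM) and Esrrb (102, 100 and 102 CPM) were not called in any comparison, Tfap2c was at 8.64, 18.7 and 3.79 CPM, and Elf5 (0.0332, 0.154 and 0.224 CPM) and Gata3 (0.750, 0.17 and 0.227 CPM) were too low to be tested, so the label of ABSCs is only partly borne out. Because these are bulk samples, fewer cells of a type and less RNA per cell cannot be told apart.

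The promoters of the genes the results turn on are given from RefSeq (GRCm38.p6), as 250 bases before and 50 after the annotated start. RefSeq promoters were matched for 9 of the 10 genes, all but Hes1, and Dll1 and Hes6 have a pair each, so 11 windows were searched. Jag2 (chr12:112929446-112929745, minus strand) is shown because it fell in both ABSCs and ALSCs, Dll3 (chr7:28301736-28302035, minus strand) because it rose in ALSCs and fell in ABSCs against ALSCs, and Notch3 (chr17:32166841-32167140, minus strand) because it is the main receptor and holds the 1 match in capitals. Capitals mark TTCNNNGAA, the STAT motif, and would also mark TGGGAA, the core motif of RBPJ.
Jag2: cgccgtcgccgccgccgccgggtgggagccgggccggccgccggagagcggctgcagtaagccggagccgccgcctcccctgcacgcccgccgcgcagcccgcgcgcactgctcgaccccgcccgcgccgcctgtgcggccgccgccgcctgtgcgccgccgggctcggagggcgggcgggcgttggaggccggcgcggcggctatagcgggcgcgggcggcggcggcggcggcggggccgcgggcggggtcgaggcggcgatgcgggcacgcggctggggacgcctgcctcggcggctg
Dll3: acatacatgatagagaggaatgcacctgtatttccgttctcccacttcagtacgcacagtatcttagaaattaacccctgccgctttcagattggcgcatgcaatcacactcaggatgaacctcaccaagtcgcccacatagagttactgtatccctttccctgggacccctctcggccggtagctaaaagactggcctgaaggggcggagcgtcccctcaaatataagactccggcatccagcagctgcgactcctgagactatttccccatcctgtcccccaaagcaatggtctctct
Notch3: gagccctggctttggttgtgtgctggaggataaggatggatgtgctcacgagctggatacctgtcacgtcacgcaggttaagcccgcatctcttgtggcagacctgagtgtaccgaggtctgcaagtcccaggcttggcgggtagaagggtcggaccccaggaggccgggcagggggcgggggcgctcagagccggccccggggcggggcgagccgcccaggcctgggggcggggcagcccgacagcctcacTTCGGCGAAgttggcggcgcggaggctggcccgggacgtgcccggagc
The Jag2 window is 86.0% G and C, the Notch3 window 70.0% and the Dll3 window 52.0%. TGGGAA on either strand was in none of the 11 windows, against 25.6% of 32851 mouse promoters of the same length. TTCNNNGAA was in the Notch3 window alone, against 8.3% of all promoters. The short SMAD motif CAGAC was in 7 of the windows and in 49.6% of all promoters, and it had no match in those of Notch1, Notch2, Dll3 and Jag2. The second SMAD motif searched, GGCGCC, was in 1 Dll1 window and in 11.9% of all promoters. The motif CACNAG, the N-box that Hes proteins bind, was in 6 of the windows and in 42.5% of all promoters. RefSeq places the start of Jag2 281 bases, and that of Dll3 453 bases, from the gene start in the count table. Among the windows searched but not shown, the start of Notch1 lies 12841 bases from it, 1 of Dll1 1049 bases and 1 of Hes6 816 bases. These matches describe letters in these windows only.

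Receptor transcripts were mostly Notch3 in all 3 cell types. Of the 3 receptors none was called in any comparison, where 7.98% of all genes tested were called in ABSCs against AFSCs, 7.04% in ALSCs against AFSCs and 11% in ABSCs against ALSCs. Notch3 (ENSMUSG00000038146, chromosome 17, 32120820 to 32166880, GRCm38), a receptor best known from vascular smooth muscle, was at 350, 357 and 336 CPM in ABSCs 1 to 3, at 441, 375 and 351 CPM in ALSCs 1 to 3, and at 322, 349 and 334 CPM in AFSCs 1 to 3. ALSCs 1 was the highest library, and each ALSCs library was above each AFSCs library by a narrow margin. Its log2 fold change was 0.06 (95% interval -0.12 to 0.23, edgeR adjusted p = 0.796) in ABSCs against AFSCs, 0.22 (0.04 to 0.39, edgeR adjusted p = 0.145) in ALSCs against AFSCs, and -0.16 (-0.34 to 0.02, edgeR adjusted p = 0.239) in ABSCs against ALSCs. With the library number as a replicate block the ALSCs value was 0.21 and passed (edgeR adjusted p = 0.0317), while without the libraries numbered 1 it was 0.09 (edgeR adjusted p = 0.2). The table's reads for Notch3 may include some of Gm17276, a long non-coding gene on the other strand that overlaps it, at 0.812 CPM.

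Notch1 and Notch2 were the minor receptors. Notch1 (ENSMUSG00000026923, chromosome 2, 26457903 to 26516663), which is required for segmentation and blood formation, was at 75.5, 49.8 and 46.4 CPM in ABSCs, 62.6, 46.3 and 47.0 CPM in ALSCs, and 72.3, 61.6 and 60.5 CPM in AFSCs, each in the order of libraries 1 to 3. Library 1 was the highest in each cell type, and all groups overlapped, those of ABSCs and ALSCs with AFSCs through library 1 alone. The log2 fold change was -0.18 (-0.59 to 0.23, edgeR adjusted p = 0.689) in ABSCs against AFSCs and -0.32 (-0.73 to 0.09, edgeR adjusted p = 0.368) in ALSCs against AFSCs. With the replicate block Notch1 fell in ALSCs against AFSCs (-0.33, edgeR adjusted p = 0.00605) and did not pass in ABSCs (-0.20, edgeR adjusted p = 0.0749). Without the libraries numbered 1 it fell in ALSCs (-0.39, edgeR adjusted p = 2.73e-05) and in ABSCs (-0.34, edgeR adjusted p = 0.000121), with 2 libraries a group. ABSCs and ALSCs differed by 0.14 (-0.27 to 0.55, edgeR adjusted p = 0.693).

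Notch2 (ENSMUSG00000027878, chromosome 3, 98013527 to 98150361), a receptor known from placental trophoblast and bile ducts, was at 70.9, 87.0 and 77.7 CPM in ABSCs, 78.1, 81.3 and 78.7 CPM in ALSCs, and 65.8, 77.9 and 74.9 CPM in AFSCs. The 3 ALSCs libraries lay just above the 3 AFSCs libraries, and ABSCs overlapped both. The log2 fold changes were 0.11 (-0.09 to 0.30, edgeR adjusted p = 0.588) in ABSCs against AFSCs, 0.12 (-0.07 to 0.32, edgeR adjusted p = 0.478) in ALSCs against AFSCs, and -0.01 (-0.21 to 0.18, edgeR adjusted p = 0.935) in ABSCs against ALSCs. In the order of levels, no neighbouring pair of cell types passed the test for any of the 3 receptors.

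Set on a scale per kilobase of gene length, Notch3 stood at 43.3 ± 1.32 CPM per kilobase in ABSCs, 48.4 ± 5.82 in ALSCs and 41.6 ± 1.68 in AFSCs (SD, n = 3 each). Notch2 followed at 7.28, 7.36 and 6.76 CPM per kilobase, and Notch1 at 4.02, 3.65 and 4.55 CPM per kilobase, in the same order of cell types. Notch3 thereby made up 78.7% ± 0.759 of the summed per-kilobase level of Notch1 to Notch4 in ABSCs, 80.8% ± 1.01 in ALSCs and 78.1% ± 0.339 in AFSCs. Notch4, the endothelial receptor, held 0.787%, 0.712% and 0.622%. The table's length for Notch1, 14232 bases, counts every annotated exon. With the length of 1 principal transcript per gene, chosen after seeing the data, Notch1 held 10.5%, 8.79% and 12.2% in place of 7.30%, 6.08% and 8.57%, and Notch3 75.6%, 78.1% and 74.7%.

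**Figure D1:**
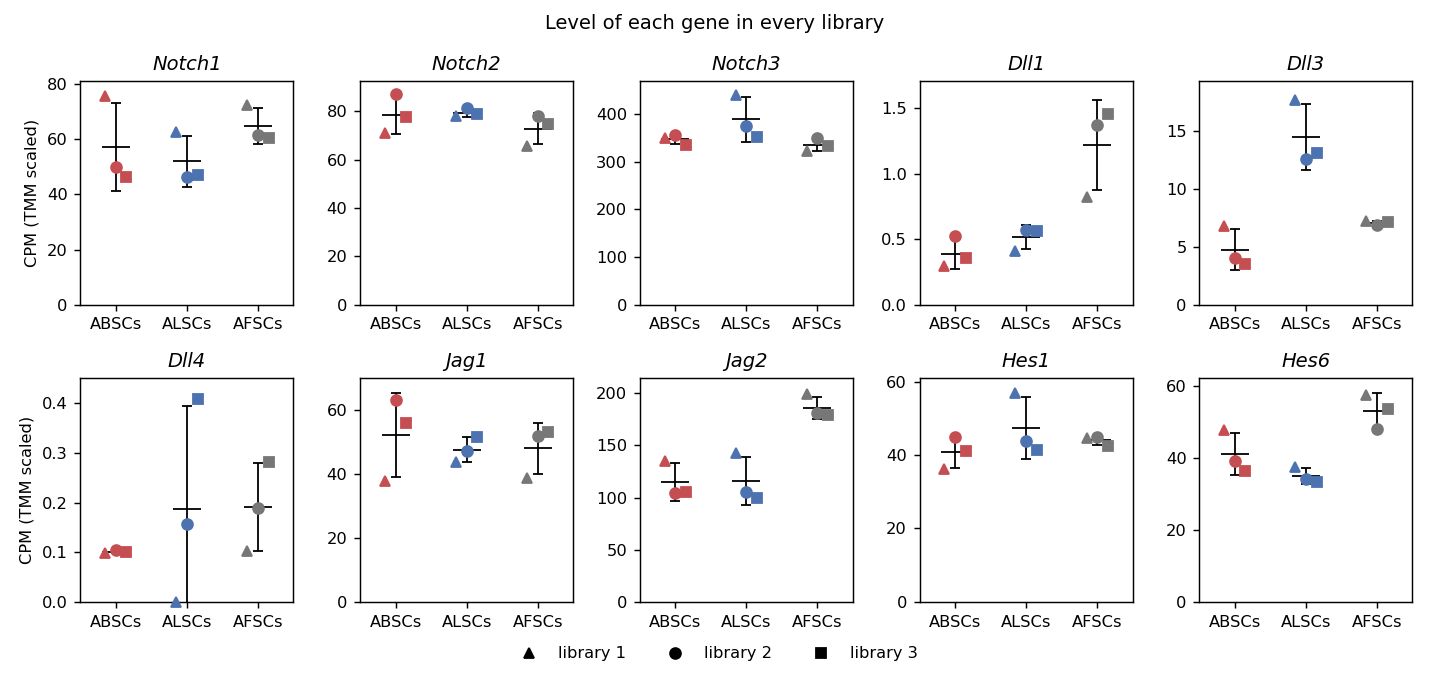
CPM of each of the 10 genes (vertical axes, linear, each from 0) in ABSCs, ALSCs and AFSCs. Triangles, circles and squares are libraries 1, 2 and 3, and the bars are the mean and SD of 3 libraries. Jag2 and Hes6 lie lower in ABSCs and ALSCs than in AFSCs, Dll3 is highest in ALSCs, and Dll4 is near or under the level of 3 counts.

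Of the ligands, Jag2, Dll1 and Dll3 changed in at least 1 comparison, and Jag1 did not pass in any. In ABSCs against AFSCs, 2 of the 9 genes tested fell (Jag2 and Dll1) and none rose, where 4.0% of all genes fell and 3.98% rose. In ALSCs against AFSCs, 2 of 9 fell (Jag2 and Hes6) and 1 rose (Dll3), where 3.50% of all genes fell and 3.54% rose. In ABSCs against ALSCs, 1 of 9 fell (Dll3) and none rose, where 5.56% of all genes fell and 5.41% rose. These shares depend on the scaling. With library size alone, 615 genes were higher and 1135 lower in ABSCs against ALSCs, in place of 875 and 900. In ALSCs against AFSCs they were 666 and 444, in place of 573 and 566. In ABSCs against AFSCs they were 566 and 673, in place of 644 and 647. An F test across all groups called 4 of 9 (Dll1, Dll3, Jag2 and Hes6), where it called 14.8% of all genes. The median log2 change of the 9 genes was -0.18, -0.01 and -0.01 in the 3 comparisons in turn, beside 0.00, 0.00 and -0.01 over all genes tested. The epiblast markers given above were also lower in sum in ABSCs and in ALSCs than in AFSCs. Dnmt3b was the largest part of that sum. Nanog was higher in both than in AFSCs, and Pou5f1 was higher in ABSCs. The part of these markers in the falls of Jag2, Dll1 and Hes6 was not tested. ABSCs and ALSCs were set against the same AFSCs libraries, so their changes are given side by side without a count of agreement.

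Jag2 (ENSMUSG00000002799, chromosome 12, 112907819 to 112929776), a Jagged ligand known from limb, palate and thymus development, was at 135, 104 and 105 CPM in ABSCs 1 to 3, at 143, 105 and 100 CPM in ALSCs 1 to 3, and at 199, 181 and 179 CPM in AFSCs 1 to 3. Every AFSCs library was above every ABSCs and ALSCs library, and library 1 was the highest of each cell type. Jag2 fell to 115 ± 17.8 CPM in ABSCs, against 186 ± 10.9 CPM in AFSCs (log2 fold change -0.70, SE 0.14, edgeR adjusted p = 0.0135). It fell to 116 ± 23.2 CPM in ALSCs (-0.69, SE 0.14, edgeR adjusted p = 0.0194). ABSCs and ALSCs differed by -0.01 (95% interval -0.33 to 0.30, edgeR adjusted p = 0.964), so AFSCs stood above and the other 2 cell types were not told apart. The ABSCs call was lost without ABSCs 2 (-0.63, edgeR adjusted p = 0.0654) and without ABSCs 3 (-0.64, edgeR adjusted p = 0.0623). The ALSCs call was lost in 5 of 9 fits that left out 1 library, those without ALSCs 2, ALSCs 3, AFSCs 1, AFSCs 2 and AFSCs 3, at -0.72 to -0.59 (edgeR adjusted p = 0.0559 to 0.0684). Within the library numbers the differences were -0.56, -0.80 and -0.77 for ABSCs minus AFSCs and -0.48, -0.79 and -0.84 for ALSCs minus AFSCs, for numbers 1, 2 and 3 in turn.

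Dll3 (ENSMUSG00000003436, chromosome 7, 28293553 to 28302238), a divergent Delta ligand that acts inside the cell on other Notch proteins and is known from the segmenting mesoderm, was at 6.78, 4.03 and 3.49 CPM in ABSCs, at 17.7, 12.6 and 13.1 CPM in ALSCs, and at 7.21, 6.94 and 7.14 CPM in AFSCs. The 3 cell types did not overlap, with ALSCs highest, AFSCs between and ABSCs lowest, although ABSCs 1 came close to the AFSCs libraries. Dll3 rose to 14.5 ± 2.84 CPM in ALSCs, against 7.10 ± 0.139 CPM in AFSCs (log2 fold change 1.03, SE 0.23, edgeR adjusted p = 0.0278). It was at 4.77 ± 1.76 CPM in ABSCs, which did not pass against AFSCs (-0.57, SE 0.24, edgeR adjusted p = 0.215) but fell against ALSCs (-1.60, SE 0.24, edgeR adjusted p = 0.00249). The last call held in all 18 alternative settings, at -1.94 to -1.41. The rise in ALSCs was called in 12 of 18, and lost in the 6 fits that left out 1 library of ALSCs or AFSCs, at 0.85 to 1.11 (edgeR adjusted p = 0.0528 to 0.115). Against AFSCs, the ABSCs value passed with the replicate block (-0.61, edgeR adjusted p = 0.0167), without ABSCs 1 (-0.91, edgeR adjusted p = 0.0154) and without all libraries numbered 1 (-0.90, edgeR adjusted p = 6.92e-05).

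Markers of definitive endoderm were also lowest in ABSCs. The summed level of the 6 markers (Sox17, Foxa2, Gata4, Gata6, Cxcr4, Cer1) was 1.42 to 2.16 CPM in ABSCs, 28.7 to 45.9 CPM in ALSCs and 20.4 to 32.2 CPM in AFSCs, with 2 of them at 0 counts in ABSCs 1 and none at 0 in the other libraries. Foxa2 was the largest of them in ALSCs and AFSCs, at 0.307, 17.2 and 15.5 CPM in ABSCs, ALSCs and AFSCs in that order. Of the 6 markers, 5 fell in ABSCs against ALSCs, 3 fell in ABSCs against AFSCs and none was called in ALSCs against AFSCs. The shares of all genes that fell are given above with the ligands. None of the 3 neural and 5 endothelial markers tested was called in any comparison. Of the 6 fibroblast markers tested, 1 fell, in ABSCs against ALSCs. The endoderm markers were set beside Dll3 after their values were seen, and their part in the Dll3 result was not tested. Of the segmentation partners, the mesoderm factor T rose in ALSCs against AFSCs (0.94, edgeR adjusted p = 0.0375). This call held in only 3 of 9 fits with a library left out. It was lost with the replicate block (edgeR adjusted p = 0.0708) and without a filter (edgeR adjusted p = 0.205). T was at 72.2, 151 and 153 CPM in ABSCs, beside 134, 132 and 143 CPM in ALSCs, and its part in the Dll3 result was not tested. T did not pass in ABSCs against ALSCs (-0.12, edgeR adjusted p = 0.79) or against AFSCs (0.82, edgeR adjusted p = 0.0587). Against AFSCs it passed with DESeq2, without ABSCs 1 and without the libraries numbered 1. Tbx6, at 0.853 CPM in ABSCs, 0.94 CPM in ALSCs and 0.862 CPM in AFSCs, was not called, Msgn1 had 0 counts in all 9 libraries and Mesp1 at most 0.505 CPM.

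Dll1 (ENSMUSG00000014773, chromosome 17, 15367354 to 15376872), the main Delta ligand of the paraxial mesoderm and the neural tube, was rare. It had 6, 10 and 7 counts in ABSCs 1 to 3 (0.295, 0.523 and 0.354 CPM), 9, 11 and 11 counts in ALSCs 1 to 3 (0.413, 0.574 and 0.560 CPM), and 16, 29 and 31 counts in AFSCs 1 to 3 (0.824, 1.37 and 1.46 CPM). All AFSCs libraries were above all others, and ABSCs and ALSCs overlapped. Dll1 fell in ABSCs against AFSCs (log2 fold change -1.63, SE 0.36, edgeR adjusted p = 0.0208). In ALSCs against AFSCs it stood at -1.24 (SE 0.35, edgeR adjusted p = 0.0613), and passed with the replicate block (-1.22, edgeR adjusted p = 0.0181), without AFSCs 1 (-1.45, edgeR adjusted p = 0.0486) and without the libraries numbered 1 (-1.31, edgeR adjusted p = 0.0150). ABSCs and ALSCs were at -0.40 (95% interval -1.28 to 0.48, edgeR adjusted p = 0.582). The ABSCs call was lost without ABSCs 1, ABSCs 3, AFSCs 2 or AFSCs 3, at -1.57 to -1.46 (edgeR adjusted p = 0.0531 to 0.0995). With counts this low, counting error alone is large, and with a minimum count of 50 the gene was not tested.

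Jag1 (ENSMUSG00000027276, chromosome 2, 137081456 to 137116644), the Jagged ligand of heart, inner ear and bile duct development, was at 37.7, 62.9 and 55.7 CPM in ABSCs, 43.8, 47.2 and 51.5 CPM in ALSCs, and 38.8, 51.9 and 53.0 CPM in AFSCs. Library 1 was the lowest of each cell type, and all groups overlapped. Its log2 fold change was 0.12 (-0.28 to 0.52, edgeR adjusted p = 0.806) in ABSCs against AFSCs, -0.01 (-0.41 to 0.39, edgeR adjusted p = 0.979) in ALSCs against AFSCs and 0.13 (-0.27 to 0.53, edgeR adjusted p = 0.698) in ABSCs against ALSCs. Without the libraries numbered 1 it passed in ABSCs against AFSCs (0.18, edgeR adjusted p = 0.0417) and against ALSCs (0.27, edgeR adjusted p = 0.00267), and with the replicate block in neither (0.11, edgeR adjusted p = 0.462, and 0.11, edgeR adjusted p = 0.415).

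Dll4 (ENSMUSG00000027314, chromosome 2, 119325784 to 119335962), the Delta ligand of arterial endothelium, had 2, 2 and 2 counts in ABSCs, 0, 3 and 8 counts in ALSCs, and 2, 4 and 6 counts in AFSCs. Most libraries were near or under 3 counts, so it was not tested. Without a filter on low counts it was at -0.88 (edgeR adjusted p = 0.732) in ABSCs against AFSCs, and at -0.06 and -0.82 in ALSCs against AFSCs and ABSCs against ALSCs, where no difference was detectable at this depth.

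**Figure D2:**
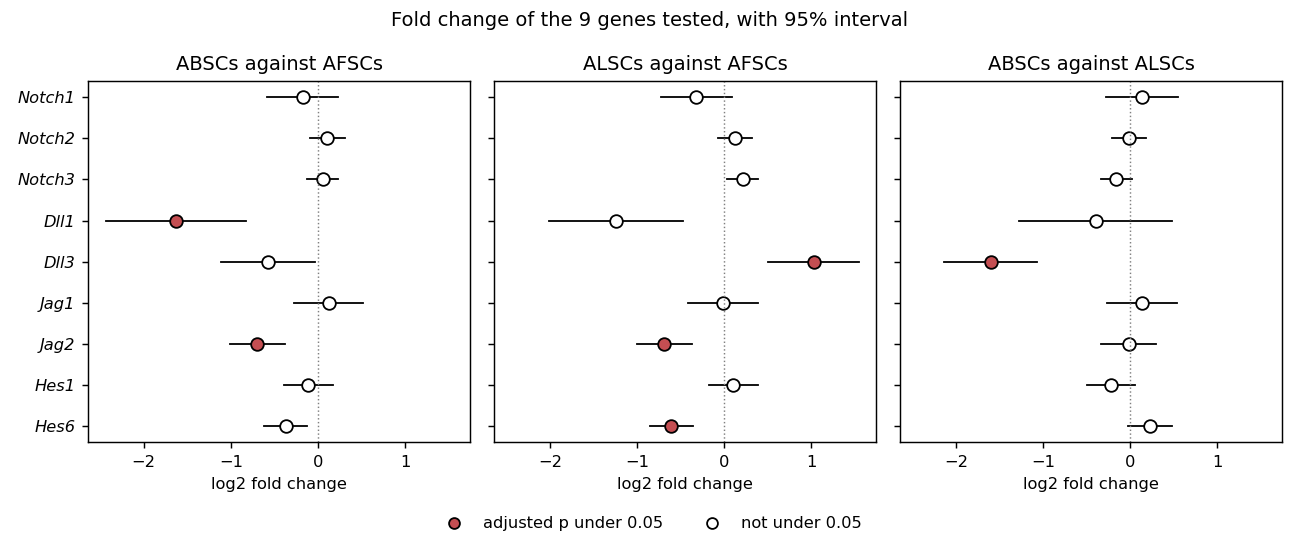
Log2 fold change (horizontal axis) of the 9 genes tested in the 3 comparisons, with bars for the 95% interval of the edgeR fit over 9 libraries. Filled points passed at an adjusted p under 0.05: Dll1 and Jag2 in ABSCs against AFSCs, Dll3, Jag2 and Hes6 in ALSCs against AFSCs, and Dll3 in ABSCs against ALSCs.

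On the per-kilobase scale Jag2 was the main ligand transcript in every library. The 5 ligands summed to 28.4, 27.3 and 25.9 CPM per kilobase in ABSCs, 34.3, 27.7 and 28.1 in ALSCs, and 38.0, 37.7 and 37.7 in AFSCs. Every AFSCs library was above every other library. Jag2 held 60.4% ± 7.16 of that sum in ABSCs, 55.1% ± 4.24 in ALSCs and 70.8% ± 3.88 in AFSCs, and its range in ABSCs, 54.8% to 68.5%, reached the lowest AFSCs library at 68.1%. Jag1 held 33.1% ± 8.97 in ABSCs, 27.5% ± 5.00 in ALSCs and 21.7% ± 3.67 in AFSCs. Dll3 held 6.09% ± 2.00 in ABSCs, 16.8% ± 1.18 in ALSCs and 6.59% ± 0.115 in AFSCs, so that ABSCs and AFSCs overlapped in its share although not in its level. Dll1 held at most 0.915% and Dll4 at most 0.377%. These shares are given as values, with no test. With principal transcript lengths the Jag2 shares were 66.4%, 61.2% and 75.8%, in the same order of cell types.

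**Figure D3:**
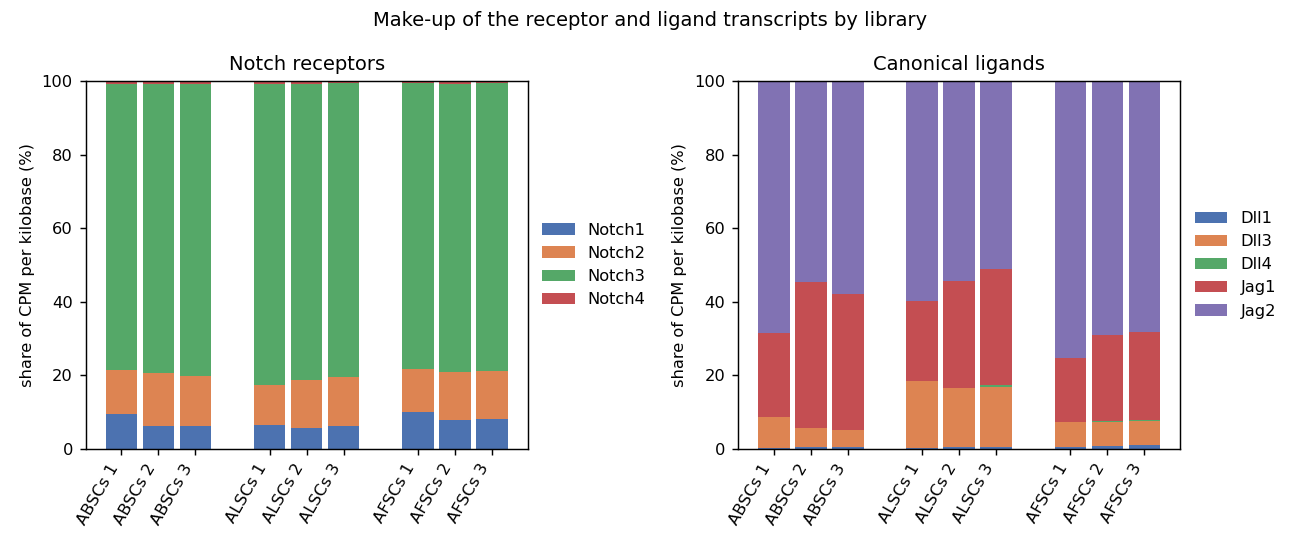
Share of the summed CPM per kilobase (vertical axis, percent) held by each receptor (left) and each ligand (right) in every library. Notch3 holds 77.7% to 81.9% of the receptor sum in all 9 libraries, while the Dll3 part of the ligand sum is 15.9% to 18.1% in ALSCs and at most 8.38% in the other libraries.

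Of the Hes factors, Hes6 fell in ALSCs and Hes1 was not called. Hes1 (ENSMUSG00000022528, chromosome 16, 30064384 to 30067796), the repressor that is the classic direct target of Notch and keeps progenitors undifferentiated, was at 36.2, 45 and 41.1 CPM in ABSCs, 57.0, 43.8 and 41.5 CPM in ALSCs, and 44.6, 44.9 and 42.6 CPM in AFSCs. Libraries 2 and 3 of all cell types lay between 41.1 and 45 CPM, with ALSCs 1 above and ABSCs 1 below them. The log2 fold change was -0.11 (95% interval -0.39 to 0.17, edgeR adjusted p = 0.718) in ABSCs against AFSCs, 0.11 (-0.17 to 0.38, edgeR adjusted p = 0.687) in ALSCs against AFSCs, and -0.22 (-0.50 to 0.06, edgeR adjusted p = 0.305) in ABSCs against ALSCs. Without the libraries numbered 1 the values were -0.02, -0.04 and 0.02.

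Hes6 (ENSMUSG00000067071, chromosome 1, 91411483 to 91414038), which counters Hes1 and promotes neuronal differentiation, was at 47.7, 39.3 and 36.4 CPM in ABSCs, 37.5, 34.1 and 33.3 CPM in ALSCs, and 57.7, 48.1 and 53.8 CPM in AFSCs. Each AFSCs library was above all others, narrowly so for AFSCs 2 over ABSCs 1. Hes6 fell to 35.0 ± 2.24 CPM in ALSCs, against 53.2 ± 4.81 CPM in AFSCs (log2 fold change -0.60, SE 0.11, edgeR adjusted p = 0.0123). It stood at 41.1 ± 5.88 CPM in ABSCs, which did not pass (-0.37, SE 0.11, edgeR adjusted p = 0.0774). In ABSCs it passed with the replicate block (-0.38, edgeR adjusted p = 0.00161), without a filter (-0.36, edgeR adjusted p = 0.0426), with DESeq2 (adjusted p = 0.0338), without ABSCs 1 (-0.49, edgeR adjusted p = 0.0130) and without the libraries numbered 1 (-0.43, edgeR adjusted p = 4.45e-05). The ALSCs call was lost without ALSCs 3 (-0.57, edgeR adjusted p = 0.0512) and without AFSCs 3 (-0.60, edgeR adjusted p = 0.0575). ABSCs against ALSCs gave 0.23 (SE 0.11, edgeR adjusted p = 0.229), which passed with the replicate block (edgeR adjusted p = 0.0311). On the per-kilobase scale Hes1 was at 20.0, 23.3 and 21.6 CPM per kilobase and Hes6 at 22.7, 19.4 and 29.4 CPM per kilobase in ABSCs, ALSCs and AFSCs in that order.

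In ABSCs against AFSCs the libraries of 4 of the 9 genes did not overlap (Dll1, Dll3, Jag2 and Hes6), where 27.4% of all genes tested did not. In ALSCs against AFSCs these were 6 of 9 (the same 4 with Notch2 and Notch3), against 28.5%. In ABSCs against ALSCs it was Dll3 alone, against 28.9%. With the replicate block 4, 6 and 2 of the 9 genes were called in the 3 comparisons in turn, where 19.4%, 22.2% and 28.5% of all genes were, and the F test called 6 of 9, where it called 37.0% of all genes.

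The library number went with the level of most of the genes. Notch1, Dll3, Jag2 and Hes6 were higher in library 1 than in the mean of libraries 2 and 3 in all 3 cell types, and Notch2, Dll1 and Jag1 were lower in all 3. Some of these differences were small, as for Notch2 in ALSCs (-0.03). The share of all genes with the same sign in all 3 cell types was not counted, so this is not a trait particular to these genes. The log2 difference of library 1 for Dll3 was 0.84 in ABSCs, 0.46 in ALSCs and 0.03 in AFSCs. For Notch1 it was 0.65, 0.42 and 0.24, and for Jag1 -0.65, -0.17 and -0.44. Hes1 went both ways, at -0.25 in ABSCs and 0.42 in ALSCs. What the number stands for is not given in the sources used here, and the part of this difference in the results was not tested beyond the values without those libraries.

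**Figure D4:**
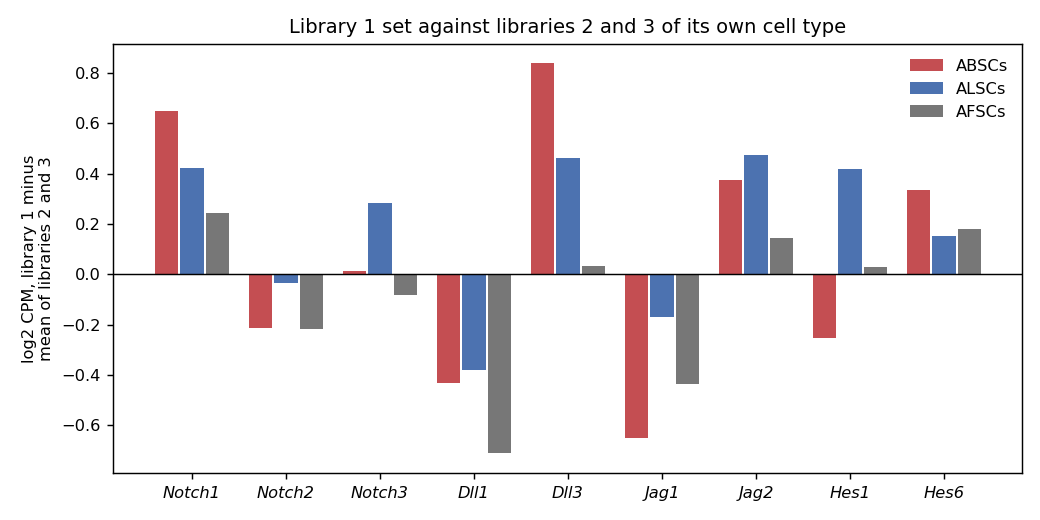
Log2 CPM of library 1 minus the mean of libraries 2 and 3 of the same cell type (vertical axis) for the 9 genes tested. Bars are single differences without error, and those of Notch1, Dll3, Jag2 and Hes6 are above 0 in all 3 cell types while those of Notch2, Dll1 and Jag1 are below 0.

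Most other genes of the pathway were not called. Of 87 genes in 8 lists, 68 were tested: 5 rose and 2 fell in ABSCs against AFSCs, 2 rose in ALSCs against AFSCs, and 5 rose and 5 fell in ABSCs against ALSCs, to be read against the 7.98%, 7.04% and 11% of all genes called. With the replicate block 9 rose and 8 fell in ABSCs against AFSCs, 4 rose and 10 fell in ALSCs against AFSCs, and 14 rose and 14 fell in ABSCs against ALSCs, where 19.4%, 22.2% and 28.5% of all genes were called. Of the calls without the block, 7 of 7, 1 of 2 and 10 of 10 were among them. Without it, the 68 genes' median log2 change was 0.03, 0.00 and 0.06, beside 0.00, 0.00 and -0.01 over all genes tested. Of the 10 genes for cleavage of the receptor, 2 rose in ABSCs against AFSCs. These were Furin, the protease that cuts the maturing receptor, at 42.5 ± 8.57 CPM in ABSCs and 25.7 ± 3.52 CPM in AFSCs (log2 fold change 0.73, SE 0.15, edgeR adjusted p = 0.0176), and Adam17 (0.27, edgeR adjusted p = 0.0322). Furin also rose against ALSCs (0.62, edgeR adjusted p = 0.0303). The Furin call against AFSCs was lost without AFSCs 2 (edgeR adjusted p = 0.0789) and without AFSCs 3 (edgeR adjusted p = 0.0832), and that against ALSCs in 3 of 9 fits (those without ABSCs 2, ALSCs 2 or ALSCs 3), with library size only (edgeR adjusted p = 0.065) and with only those 2 groups (edgeR adjusted p = 0.0605). That of Adam17 was lost in 5 of 9 (those without ABSCs 2, ABSCs 3 or any AFSCs library).

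Of the 14 genes for endocytosis, trafficking and turnover, Dtx1, a Deltex protein and known Notch target, fell in ABSCs against AFSCs. It was at 16.3, 7.37 and 7.94 CPM in ABSCs and 25.2, 23.9 and 22.9 CPM in AFSCs (log2 fold change -1.19, SE 0.27, edgeR adjusted p = 0.0238). The ABSCs libraries were all lower, with ABSCs 1 nearest. Dtx1 also fell against ALSCs (-0.99, edgeR adjusted p = 0.0421), as did Neurl1a, a ligase for ligand endocytosis (-0.79, edgeR adjusted p = 0.0481). Each of the calls against ALSCs held in 1 of 9 fits that left out a library, that of Neurl1a without ALSCs 2 and that of Dtx1 without ABSCs 1, and the Dtx1 call against AFSCs in 4 (it was lost without ABSCs 2, ABSCs 3 or any AFSCs library). Of the 8 glycosylation genes, the Fringe Mfng fell in ABSCs against ALSCs, at 1.76 ± 0.822 CPM in ABSCs and 4.71 ± 1.82 CPM in ALSCs (-1.42, edgeR adjusted p = 0.0292, held in 4 of 9 such fits and lost without ABSCs 2, ABSCs 3, ALSCs 1, AFSCs 2 or AFSCs 3). Lfng, the Fringe of the segmentation clock, was at 5.46 ± 3.07 CPM in ABSCs, 3.71 ± 1.19 CPM in ALSCs and 3.43 ± 0.518 CPM in AFSCs, and was not called.

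Of the 21 nuclear partners and co-repressors, Maml1, a Mastermind co-activator, rose in ALSCs against AFSCs, at 64.9 ± 3.26 CPM and 50.9 ± 2.25 CPM (log2 fold change 0.35, SE 0.07, edgeR adjusted p = 0.0129, lost without ALSCs 2, AFSCs 2 or AFSCs 3). It fell in ABSCs against ALSCs (-0.24, edgeR adjusted p = 0.0443, held in 1 of 9 fits with a library left out, that without ALSCs 1). Maml2 rose in ABSCs against AFSCs (1.19, edgeR adjusted p = 0.0402, held in 2 of 9, without ABSCs 1 and without ALSCs 1), and the co-repressor Ctbp2 fell (-0.43, edgeR adjusted p = 0.0197, held in 4 of 9 and lost without ABSCs 2, ABSCs 3 or any AFSCs library). Maml2 had low counts, 27, 50 and 32 in ABSCs and 15, 18 and 17 in AFSCs. In ABSCs against ALSCs the Groucho co-repressor Tle3 fell (-0.56, edgeR adjusted p = 0.0180, lost without ABSCs 2, ABSCs 3, ALSCs 2 or ALSCs 3) and L3mbtl3, a repressor that binds RBPJ, rose (0.53, edgeR adjusted p = 0.0168, lost without ALSCs 3). Rbpj itself, at 70.9 ± 9.45 CPM in ABSCs, 58.6 ± 8.88 CPM in ALSCs and 56.8 ± 5.29 CPM in AFSCs, was not called (0.32 in ABSCs against AFSCs, edgeR adjusted p = 0.2), but passed with the replicate block in ABSCs against AFSCs (0.32, edgeR adjusted p = 0.00119) and against ALSCs (0.28, edgeR adjusted p = 0.00249). The block also called Tle3 in ABSCs against AFSCs (-0.30, edgeR adjusted p = 0.00151) and in ALSCs against AFSCs (0.25, edgeR adjusted p = 0.00444), and Ctbp2 in ABSCs against ALSCs (-0.26, edgeR adjusted p = 0.0206). In ALSCs against AFSCs it called L3mbtl3 (-0.33, edgeR adjusted p = 0.00429) and Maml2 (1.01, edgeR adjusted p = 0.0284).

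None of the 5 tested genes among the other Hes, Hey and feedback targets passed in any comparison. Hey1 was at 15.0, 5.75 and 6.88 CPM in ABSCs, 7.99, 4.28 and 3.21 CPM in ALSCs, and 10.7, 6.52 and 7 CPM in AFSCs, with library 1 highest in each cell type. Its log2 fold change was 0.19 (95% interval -0.72 to 1.11) in ABSCs against AFSCs and -0.64 (-1.58 to 0.30) in ALSCs against AFSCs. With the replicate block Hey1 was called in ALSCs against AFSCs (-0.69, edgeR adjusted p = 0.00793) and in ABSCs against ALSCs (0.82, edgeR adjusted p = 0.0021), and Bhlhe41 in ALSCs against AFSCs (-0.75, edgeR adjusted p = 0.0278). Nrarp, a feedback inhibitor, was at 7.25 ± 0.532 CPM in ABSCs, 6.94 ± 1.51 CPM in ALSCs and 8.63 ± 1.18 CPM in AFSCs. Hes5, the Hes gene of neural progenitors, had under 1 CPM in every library, as did the proneural gene Neurog2, which Hes proteins repress. Among the non-canonical ligands, Dlk1 rose in ABSCs against AFSCs, at 10.1 ± 1.25 CPM and 6.65 ± 0.399 CPM (0.60, edgeR adjusted p = 0.0466, held in 2 of 9 fits with a library left out, those without ALSCs 1 or ALSCs 3), and against ALSCs (0.58, edgeR adjusted p = 0.0424, held in 1 of 9, without ALSCs 1). Dner rose against ALSCs (1.53, edgeR adjusted p = 0.0404, held in 2 of 9, without ALSCs 2 and without AFSCs 2), and with the replicate block also against AFSCs (1.22, edgeR adjusted p = 0.0183). Its counts were low, at 34, 30 and 25 in ABSCs, 8, 16 and 7 in ALSCs, and 10, 21 and 10 in AFSCs. Of the segmentation partners, Cdx2 rose in ABSCs against AFSCs (5.04, edgeR adjusted p = 0.00839) and against ALSCs (5.64, edgeR adjusted p = 0.00615), both held in 9 of 9, but with limma-voom neither passed (adjusted p = 0.0805 and 0.0583), and without a filter the call against AFSCs was lost (edgeR adjusted p = 0.0659). Cdx2 had 17, 123 and 120 counts in ABSCs 1 to 3, 0, 2 and 3 in ALSCs, and 0, 3 and 5 in AFSCs. T rose in ALSCs against AFSCs, at 136 ± 6.21 CPM and 70.9 ± 4.36 CPM (0.94, edgeR adjusted p = 0.0375). This call was lost with the replicate block (edgeR adjusted p = 0.0708) and without a filter (edgeR adjusted p = 0.205). It held in only 3 of 9 fits with a library left out (those without an ABSCs library), and was lost without any ALSCs or AFSCs library.

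**Figure D5:**
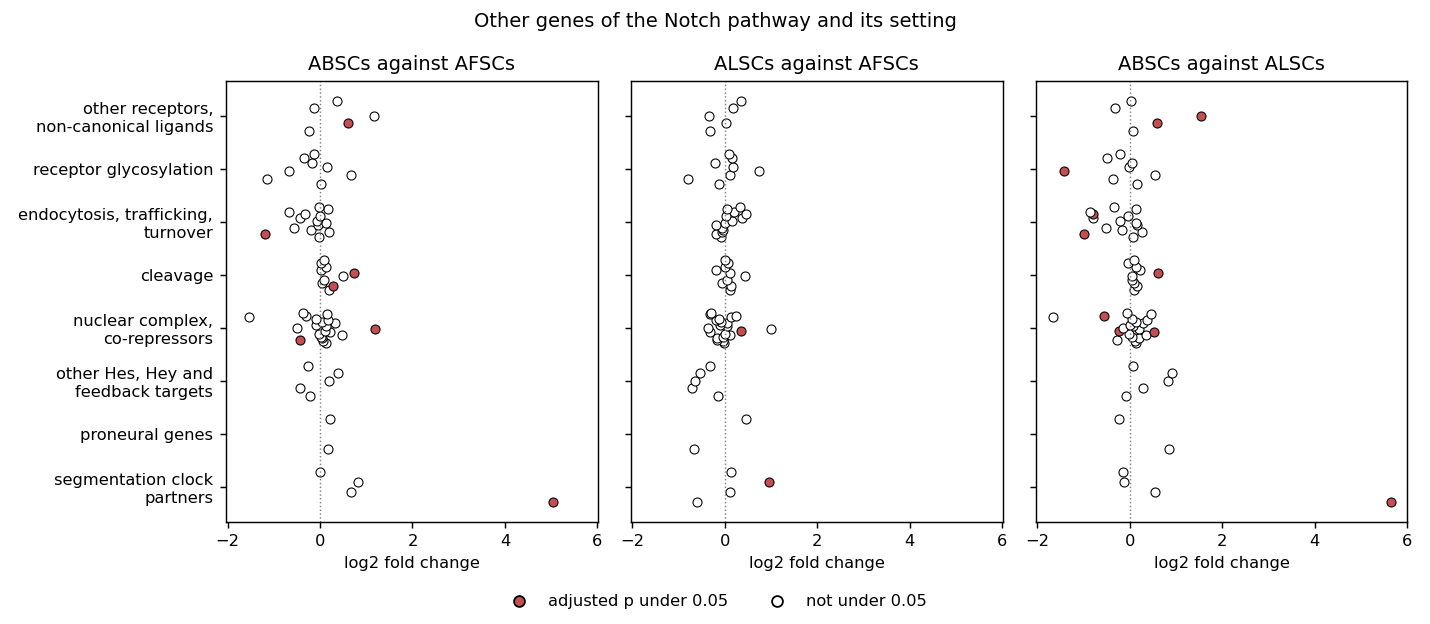
Log2 fold change (horizontal axis) of the tested genes of 8 lists (rows) in the 3 comparisons, 1 point per gene and list. Filled points passed at an adjusted p under 0.05, 7 in ABSCs against AFSCs, 2 in ALSCs against AFSCs and 10 in ABSCs against ALSCs, and the points beyond 5 are Cdx2.

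The genes whose pattern over the 9 libraries lay nearest to each member, by the root mean square difference of log2 CPM centred on its own mean, were found among genes at 5 CPM or more. The 9 libraries share the cell types and the library numbers described above. Each distance is the smallest over many genes, so a near gene is found for any member. The distances were not set against those of other genes. Nearest to Dll3 were Gstm5 (0.12), Apbb1 (0.17) and H2-Q7 (0.21), where Dll3 itself had an SD of 0.76. Nearest to Jag2 (SD 0.40) were Dnajb5 (0.09), Dgka (0.09) and Pou2f2 (0.11), and nearest to Hes6 (SD 0.29) were Socs5 (0.06), Rab23 (0.10) and Tns2 (0.10). Dll1 (SD 0.70) was nearest to S100a6 (0.19) and Ano3 (0.19), and Notch1 (SD 0.28) to Mtus1 (0.07). Notch2, Notch3, Jag1 and Hes1 varied little (SD 0.12, 0.13, 0.24 and 0.17), and their nearest genes, Prkx, Bbx, Slf1 and 2010320M18Rik, lay at 0.04 to 0.06.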

How the data were processed

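RNA was measured in 9 libraries made from poly-A RNA with an unstranded kit, per the labels' protocols. The deposited table holds whole-number read counts for each gene, which the authors made with HISAT2 2.0.5 and featureCounts 1.5.0-p3, per the submitters' processing notes. The other deposited column used, the gene length in bases, is another value the authors give. The notes name mm9, but 98.26% of the 54409 gene IDs shared with GENCODE M21 had its GRCm38 coordinates (9 of the 10 genes here), so coordinates are read as GRCm38. The 346 loci without an Ensembl ID (0.208% to 0.227% of counts) were left out.

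Tests across all genes used edgeR 4.0.16 in R 4.3.3 (filterByExpr with a minimum count of 10, TMM factors 0.963 to 1.06, 1 quasi-likelihood fit of group means, 2-sided tests, 6 residual degrees of freedom, biological coefficient of variation 0.147). SE is the absolute log2 change over the square root of F. CPM are scaled by TMM, and floors of 3 counts cover counting error only. Alternatives were DESeq2 1.42.0, limma-voom 3.58.1, other scalings and filters, the replicate block and left-out libraries. The library numbers come from the labels. Deviations from group means correlated at 0.197 to 0.554 between same-numbered libraries, above the threshold of 0.1, and at -0.426 to 0.273 between others. Libraries numbered 1 correlated at 0.464 to 0.554 with each other and at -0.426 to -0.304 with the rest. Same-numbered libraries 2 or 3 gave 0.197 to 0.356, and number 2 with number 3 gave 0.221 to 0.273. Only number 1 was thus seen to go together, and a pairing by numbers 2 and 3 was not shown. Calls come from the fit without a block, and the replicate block is an alternative.

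The genes and lists were chosen with earlier results of these data known. All 10 genes are named whatever their result. Other pathway genes are named where called, up to 4 a list and comparison with the largest changes at 1 CPM or more. Lfng, Rbpj, Hey1, Bhlhe41, Tbx6, Nrarp, Hes5, Neurog2, Msgn1, Mesp1 and the marker genes were named after their values were seen.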

Additional observations from a re-analysis of the deposited data

How the results depend on the processing

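Counts of called genes depended most on how the libraries numbered 1 were handled. With the replicate block, 3132 genes were called in ABSCs against AFSCs (4 of the genes described here), 3590 in ALSCs against AFSCs (6), 4605 in ABSCs against ALSCs (2) and 5992 for any difference (6), against 1291 (2), 1139 (3), 1775 (1) and 2395 (4). Without the libraries numbered 1, which leaves 2 a group, they were 4622 (6), 4122 (5), 5225 (2) and 7121 (6). Leaving out 1 library at a time gave 667 to 1723 (0 to 3), 345 to 1522 (0 to 3), 846 to 2337 (1 to 1) and 1395 to 3048 (2 to 4). Counts lower by over 1.5 times came in ABSCs against AFSCs without ABSCs 2 (685), ABSCs 3 (746), AFSCs 2 (686) or AFSCs 3 (667), in ALSCs against AFSCs without ALSCs 2 (642), ALSCs 3 (559), AFSCs 2 (349) or AFSCs 3 (345), in ABSCs against ALSCs without ABSCs 2 (846) or ABSCs 3 (958), and for any difference without ABSCs 2 (1395), ABSCs 3 (1525), AFSCs 2 (1433) or AFSCs 3 (1431). The cause was not tested. With only the 2 groups compared, ABSCs against ALSCs had 1041. A minimum count of 50 left 1 of the genes described here called in ABSCs against AFSCs, since Dll1 was then not tested. DESeq2 called 1737, 1706, 2347 and 3324.

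With 1 exception, values that changed sign were not called. In ALSCs against AFSCs, Jag1 was at 0.032 with library size only and 0.002 with the replicate block (-0.149 to 0.062 with 1 library left out), Hes1 at -0.048 to 0.196 and -0.04 without the libraries numbered 1, Dlk1 at -0.104 to 0.117 and -0.074, Dner at -0.861 to 0.063 and Cdx2 at -1.285 to 0.157. In ABSCs against AFSCs, Jag1 was at -0.035 to 0.312. In ABSCs against ALSCs, Jag1 was at -0.018 to 0.326, Jag2 at -0.145 to 0.167 and 0.035 without the libraries numbered 1, Notch1 at -0.107 to 0.3, Notch2 at -0.089 to 0.059 and 0.049, Hes1 at 0.023 without them, Maml2 at -0.132 to 0.388 and T at -0.277 to 0.165. T was the exception, at 0.155 and called without them (edgeR adjusted p = 0.0157). The replicate block called 17, 14 and 28 of the 68 pathway genes in the 3 comparisons in turn, and leaving out the libraries numbered 1 called 30, 18 and 33, against 7, 2 and 10. Of those 7, 2 and 10 calls, only those of Furin (against AFSCs), Ctbp2, Maml1 (ALSCs against AFSCs), L3mbtl3, Tle3 and Mfng held in every setting that kept all 9 libraries. With only the 2 groups compared, that of Mfng was lost (edgeR adjusted p = 0.0822). Depth limits what can be said of Dll4 and Dll1.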
